A study of Daphnia magna with 2 samples.

Results

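Barcodes that carry messages of the machinery by which neurons release peptides and transmitter were taken from single-cell RNA sequencing of whole water fleas, Daphnia magna. Members were chosen by their measured counts. A barcode was a member if it held at least 500 UMIs (unique molecular identifiers, counted molecules) and a UMI in at least 2 of 5 genes. The 5 genes were AMON (DAPMA1EVG015046), RAB3 (DAPMA1EVG030967), CPX (DAPMA1EVG022340), BRP (DAPMA1EVG013595) and VGLUT (DAPMA1EVG032745). Of 4352 barcodes with at least 500 UMIs (kept barcodes), 255 met this rule, 133 of 2253 in the mixed sample and 122 of 2099 in the young sample. They are called neuron-rule barcodes, because the neuronal label was not borne out for all of them.

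Cells were dissociated from whole bodies with collagenase at 4 mg/ml and barcoded with inDrops, which encloses each cell in a droplet with barcoded beads. The mixed sample is named for male, female, young and old animals, and the young sample for young animals. Each is 1 sample, so no difference has a replicate check and no p-value is given. Barcodes also carry library codes, 7 in the mixed and 3 in the young sample, whose meaning the files do not spell out. The matrices held 8297129 UMIs over 48846 barcodes in the mixed sample and 12067158 UMIs over 442368 barcodes in the young sample.

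Neurosecretory neurons make peptide hormones as long precursors, cut them inside dense-core vesicles with proprotein convertases and release them when calcium enters the cell. AMON is the fly form of the convertase PC2, which needs the chaperone 7B2 to become active. Rab3 and complexin (CPX) act on vesicles at the membrane, Bruchpilot (BRP) builds the active zone of fly synapses, and VGLUT loads glutamate into vesicles.

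The share of neuron-rule barcodes was 5.90% of kept barcodes in the mixed sample (exact Clopper-Pearson 95% interval 4.97 to 6.96) and 5.81% in the young sample (4.85 to 6.90). These intervals, like all others here, cover counting error only. One code stood apart. In code FYH 32 of 179 kept barcodes (17.9%, interval 12.6 to 24.3) were members, against 2.44% to 5.98% in the other 6 mixed codes. The young codes gave 6.87% in CH1, 6.32% in CH2 and 3.59% in Y2. Without FYH the mixed share was 4.87%, which is 0.942 percentage points below the young share. Members held a median of 1004 UMIs in the mixed sample, against 936.5 in other kept barcodes. Median depth was 1191.5 UMIs in young members and 809 in other young barcodes, so depth moved with membership there. With each barcode thinned to 500 UMIs, the shares were 3.37% (mixed) and 2.81% (young). The part of depth in the share was not tested beyond these values.

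**Figure D1:**
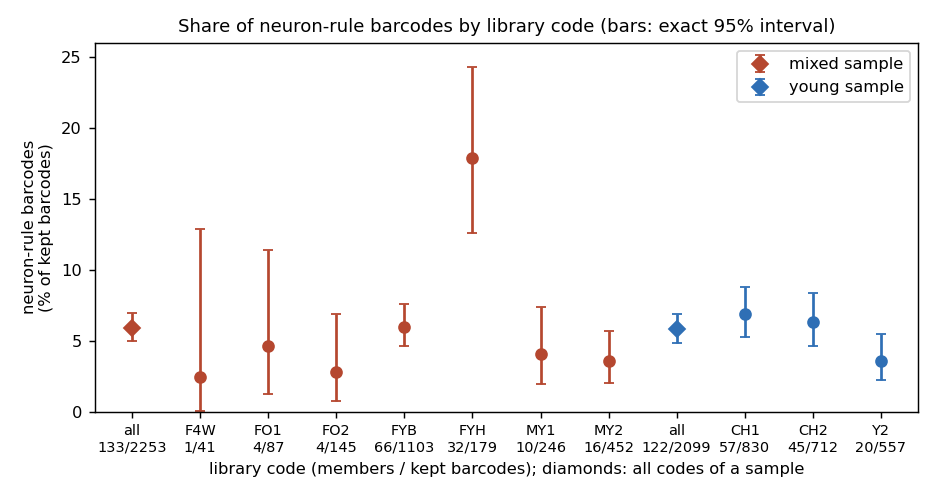
Neuron-rule barcodes as a percentage of the kept barcodes of each library code (y axis), with exact 95% binomial intervals as bars and the samples as a whole as diamonds. Code FYH, at 17.9%, lies above the upper ends of all other codes' intervals, while the 2 samples as a whole are at 5.90% (mixed) and 5.81% (young).

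The rule genes chose the members and are given as a description. A UMI of CPX was found in 115 of the mixed and 111 of the young members, and one of RAB3 in 94 mixed and 75 young members. BRP was found in 51 mixed and 53 young members, and VGLUT in 22 mixed and 14 young members. The samples differed most in AMON, found in 63 of 133 mixed members and in 24 of 122 young members. Most members sat just inside the threshold. Exactly 2 rule genes were found in 81 mixed and 101 young members, and 3 to 5 rule genes in 52 mixed and 21 young members. Just outside it, 440 mixed and 549 young barcodes held 1 rule gene.

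SCG5/7B2 (DAPMA1EVG018558), the convertase chaperone, separated these classes although the rule did not use it. Its level is given in CPM, counts per 1000000 of the summed counts of a set of barcodes. In the mixed sample it was 3926 CPM in members with 3 to 5 rule genes, 616 CPM in members with exactly 2, and 12.6 CPM in barcodes with 1. The young levels were 3576, 101 and 5.80 CPM in the same order. The step between members with 3 to 5 and with 2 rule genes was thus larger in the young sample. Among members with AMON, the enzyme's own message, 7B2 was at 4109 CPM in the mixed and 2879 CPM in the young sample. Among members without AMON it was at 208 CPM (mixed) and 145 CPM (young).

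**Figure D2:**
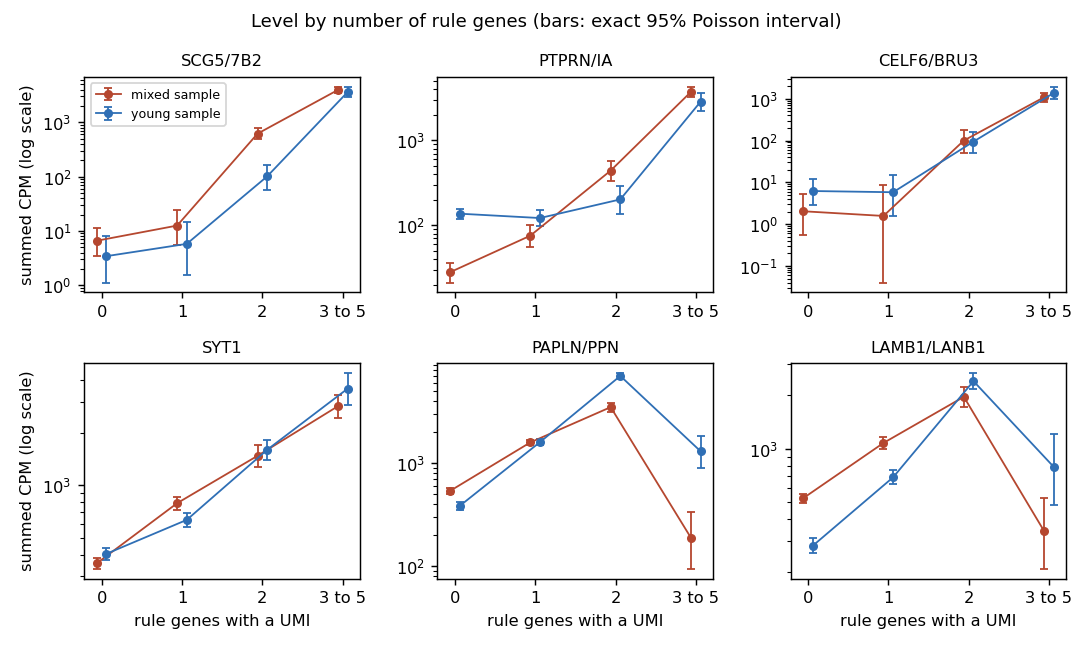
Summed CPM (y axis, log scale) of 6 genes in kept barcodes with 0, 1, 2 and 3 to 5 rule genes (x axis), mixed and young sample, with exact 95% Poisson intervals as bars. SCG5/7B2 is highest in barcodes with 3 to 5 rule genes, at 3926 CPM in the mixed and 3576 CPM in the young sample, whereas PAPLN/PPN is highest in members with exactly 2 rule genes, at 3488 and 7011 CPM in the same samples.

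A second set of members carried genes of the hemocyte list, which holds 17 features of basement membrane and clotting genes that fly hemocytes make (papilin, laminins, collagen IV, SPARC, peroxidasin, perlecan, transglutaminase). PAPLN/PPN (DAPMA1EVG018391), papilin, an extracellular matrix protein, was at 2403 CPM in members and 791 CPM in other kept barcodes of the mixed sample. It was at 6175 CPM in young members and 772 CPM in other young barcodes. The whole list summed to 5851 CPM in members and 3645 CPM in others (mixed) and to 12027 CPM in members and 4173 CPM in others (young), with 3 features at 0 in mixed and 5 in young members. The list did not rise as a whole. Of its 12 features with enough counts to be compared, 5 in the mixed and 7 in the young sample were higher in members than in others. The median CPM ratio of members over others was 0.722 (mixed) and 1.23 (young). At least 3 genes of this list were found in 26 of 133 mixed members (19.5%), against 16.4% of other kept barcodes. They were found in 55 of 122 young members (45.1%), against 19.9% of other young barcodes. After each barcode was thinned to 500 UMIs, the shares were 12.0% of members and 8.58% of other barcodes (mixed) and 31.1% of members and 9.86% of other barcodes (young). The cut at 3 genes runs through a range, since 16 mixed and 18 young members held exactly 2 of these genes and 12 mixed and 16 young members exactly 3.

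Few or none of these members held the neurosecretory message 7B2. A UMI of 7B2 was found in 2 of the 26 mixed and 0 of the 55 young members with at least 3 hemocyte-list genes. The exact Poisson interval of this count of 0 reaches up to 42.4 CPM. 7B2 was found in 57 of the other 107 mixed members (53.3%) and 20 of the other 67 young members (29.9%). In the 26 mixed members with at least 3 hemocyte-list genes it was at 328 CPM (15 counts), against 8.08 CPM in other kept mixed barcodes. MAP1B/FUTSCH, a neuronal microtubule protein, was at 371 CPM in mixed members with at least 3 hemocyte-list genes and 2703 CPM in those with fewer. Young members held 23.0 CPM of it (2 counts) with at least 3 of these genes and 1322 CPM with fewer. Other kept barcodes held 252 CPM (mixed) and 188 CPM (young) of it. SYT1 (DAPMA1EVG032503), the calcium sensor of vesicle fusion, did not follow this split. It was at 2163 CPM with at least 3 hemocyte-list genes and 1840 CPM with fewer in the mixed sample, and at 2139 and 1633 CPM in the same order in the young sample. Other kept barcodes held 462 CPM (mixed) and 477 CPM (young) of SYT1.

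Other genes went with the hemocyte list. SLC1A3/EAAT1, a glutamate transporter known from fly glia, was at 721 CPM in mixed members with at least 3 hemocyte-list genes and 143 CPM in those with fewer. Its young levels were 1288 CPM with at least 3 and 207 CPM with fewer. PROX1/PROS, a homeodomain factor known from fly neural lineages, was at 1070 CPM with at least 3 and 67.6 CPM with fewer in the mixed sample. Young members held 782 CPM of it (68 counts in 29 barcodes) with at least 3, while those with fewer held 1 count. The pair of rule genes found alone most often, RAB3 with CPX and no other, made up 39 mixed and 51 young members. In it papilin reached 9378 CPM (mixed) and 14176 CPM (young), and 7B2 was found in 2 barcodes of each sample. In the next pair, CPX with BRP alone, 7B2 had 6 counts over 14 mixed members and 0 counts over 32 young members. The exact Poisson interval of the young count reaches up to 67.2 CPM.

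**Figure D3:**
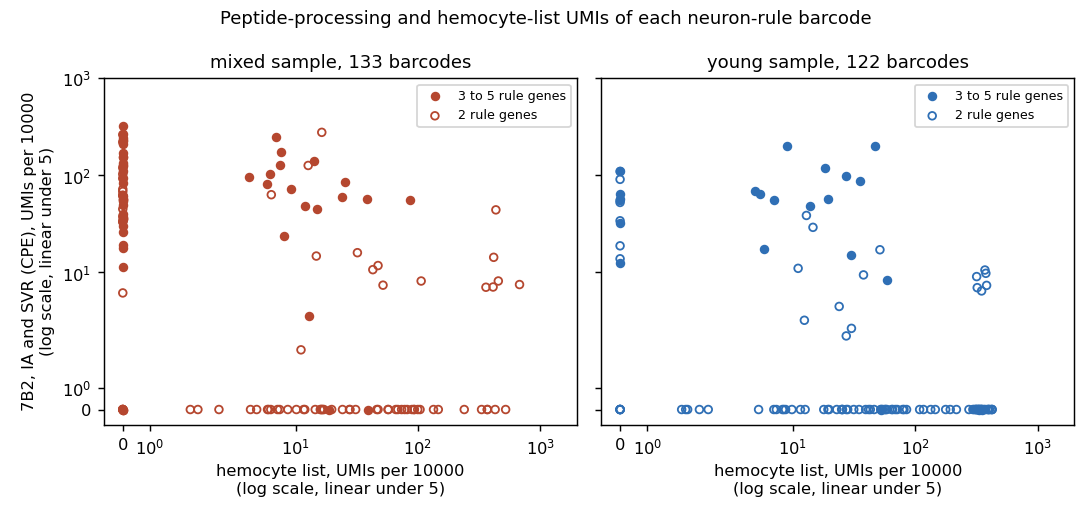
Each point is a neuron-rule barcode, placed by its UMIs per 10000 of the hemocyte list (x axis) and of SCG5/7B2, PTPRN/IA and CPE/SVR together (y axis), both on log scales that are linear under 5. Few points lie high on both axes: 4 of 133 mixed and 2 of 122 young barcodes held at least 3 UMIs of both sets. Neither set reached 3 UMIs in 34 mixed and 28 young barcodes.

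The peptide-processing genes on the y axis of the plot of single barcodes were those of their list that were called higher in members, so their height there is a description. At least 3 of their UMIs were found in 58 mixed and 20 young members, against 12 of 2120 mixed and 5 of 1977 young other kept barcodes. At least 3 hemocyte-list UMIs were found in 45 mixed and 76 young members, against 720 mixed and 796 young other kept barcodes. By that count, mixed members did not stand out from the other mixed barcodes. Of the 58 mixed members, 29 came from code FYB and 23 from FYH. A UMI of 7B2, which the rule did not use, was found in 84.6% of mixed and 71.4% of young members with 3 to 5 rule genes, and in 18.5% of mixed and 4.95% of young members with 2. The young members with 3 to 5 rule genes also held papilin at 1297 CPM (33 counts in 4 barcodes), against 772 CPM in other young barcodes. The neuronal label was not borne out for the members with many hemocyte-list UMIs.

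Members were then compared with all other kept barcodes over the whole gene table. A gene was called higher when its CPM ratio, members over other kept barcodes, was at least 4 in both samples, and lower when it was at most 1 over 4 in both. Of 6798 features tested, leaving out the 5 rule genes, 95 were called higher, a background of 1.4%, and 152 were called lower, a background of 2.24%. Of the 95 genes, 57 had a symbol and 22 stood in the lists of exocytosis, peptide-processing, transmitter, ion channel, receptor and neuronal identity genes. Their median ratio was 20.5 in the mixed and 8.49 in the young sample, and 77 of the 95 had the larger ratio in the mixed sample. Over all features tested the median ratio was 0.991 (mixed) and 1.09 (young). Without the members that held at least 3 hemocyte-list genes, 131 genes were higher and 116 lower, of which 88 and 91 were among those called with all members.

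**Figure D4:**
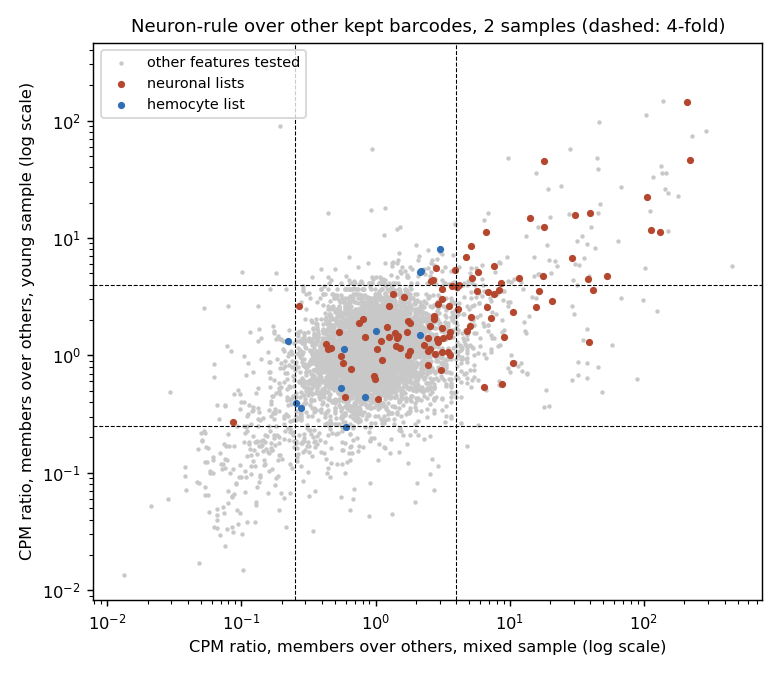
CPM ratio of neuron-rule over other kept barcodes in the mixed (x axis) and the young sample (y axis), both on log scales, for the 6798 features tested, with the neuronal lists and the hemocyte list coloured and the 4-fold limits dashed. The 95 genes called higher fill the upper right corner, with SCG5/7B2 at 211 in the mixed and 145 in the young sample.

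Of the peptide-processing list, 3 of 11 tested genes were higher and 0 lower. SCG5/7B2 had 305 counts in members and 21 in other kept barcodes of the mixed sample, and 106 counts in members and 9 in others of the young sample. Its ratio was 211 in the mixed and 145 in the young sample, and it was higher in members in all 8 codes whose members held a count of it. In FYH alone it was at 4319 CPM in members and 32.6 CPM in other kept barcodes. PTPRN/PTPRN2/IA (DAPMA1EVG028914), fly IA-2, a membrane protein of dense-core vesicles, was at 1526 CPM in members and 39.6 CPM in others of the mixed sample. Its young levels were 592 CPM in members, 132 CPM in others and 295 CPM in barcodes under 500 UMIs. CPE/SVR (DAPMA1EVG032697), a carboxypeptidase that trims basic residues off cut peptides, had 82 counts in members and 84 in others (mixed, ratio 14.2) and 12 in members and 10 in others (young, ratio 14.8).

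The amidating enzyme PAM/PHM was not called. Its most abundant feature (DAPMA1EVG031389) was at 447 CPM in members and 130 CPM in others of the mixed sample, a ratio of 3.45. Its young ratio was 1.07. FURIN/FUR1 (DAPMA1EVG030950), the convertase of the general secretory route, had ratios of 0.556 (mixed) and 0.995 (young). The list's median ratio was 1.40 in the mixed and 1.43 in the young sample.

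Of the exocytosis list, 7 of 25 tested genes were higher and 0 lower, with median ratios of 3.14 (mixed) and 3.33 (young). CADPS (DAPMA1EVG028074), which primes dense-core vesicles for release, had ratios of 7.68 (mixed) and 5.74 (young). It was higher in members in all 10 codes, but F4W, FO1 and FO2 members held only 1 count of it per code. The active zone scaffold RIMS2/RIM (DAPMA1EVG028167) had ratios of 6.65 (mixed) and 11.2 (young). SYN2/SYN (DAPMA1EVG015385), a synapsin that tethers vesicles, had 96 counts in members and 77 in others of the mixed sample and 36 counts in each of them in the young sample, ratios of 18.1 and 12.3. STON2/STNB, an adaptor of vesicle retrieval, had ratios of 39.7 (mixed) and 16.4 (young). STXBP5/TOMOSYN, which holds back SNARE assembly, and rabphilin (RPH), a Rab3 effector, were the further genes called, together with RIMS2/FIFE. FIFE had 11 counts in members and 2 in others (mixed) and 14 in members and 36 in others (young).

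Abundant SYT1 was not called, with ratios of 4.16 (mixed) and 3.95 (young), and at 500 UMIs it was found in 60.9% of members and 16.7% of others (mixed) and in 53.3% of members and 18.7% of others (young). SNAP25 had a ratio of 3.60 in the mixed sample, and of 0.998 in the young sample, where barcodes under 500 UMIs held 1382 CPM.

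**Figure D5:**
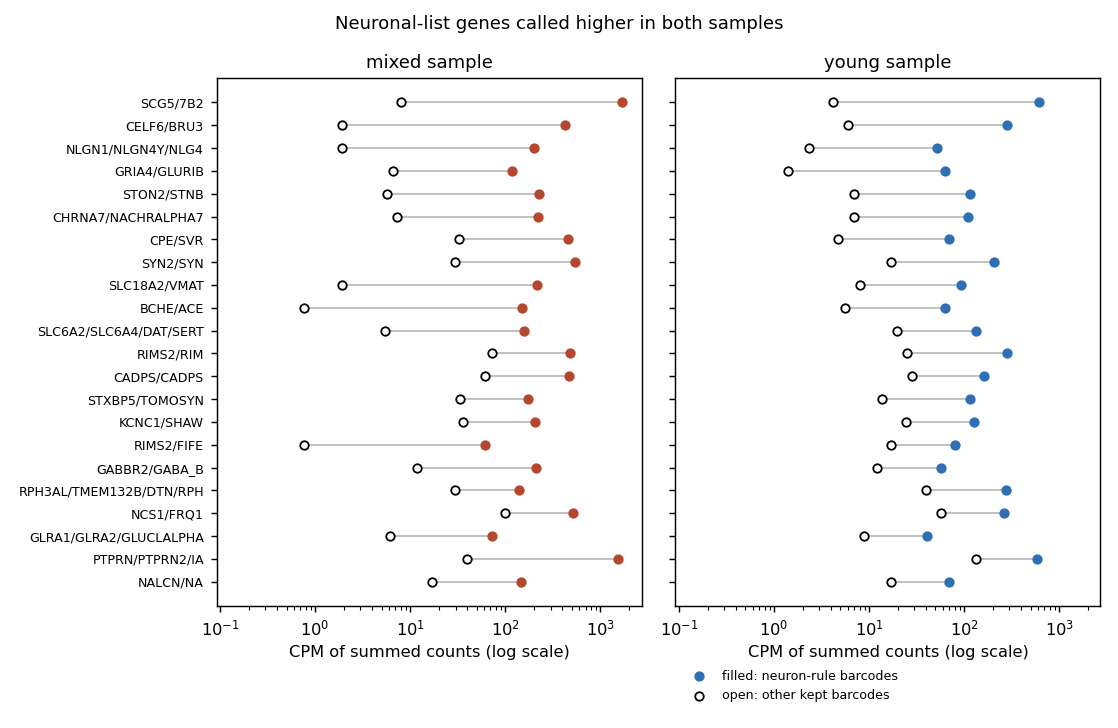
Summed CPM (x axis, log scale) of the 22 neuronal-list genes called higher, in neuron-rule barcodes (filled) and other kept barcodes (open), for the mixed and the young sample. SCG5/7B2 is at 1704 CPM in members and 8.08 CPM in others of the mixed sample, and at 609 and 4.20 CPM in those of the young sample.

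Of the neuronal identity list, 3 of 20 tested genes were higher and 0 lower. CELF6/BRU3 (DAPMA1EVG027569), an RNA-binding protein of the Bruno family, had 76 counts in members and 5 in others (mixed, ratio 221) and 49 in members and 13 in others (young, ratio 46.4). NLGN1/NLGN4Y/NLG4, a neuroligin that bridges synapses, had ratios of 105 (mixed) and 22.2 (young). NCS1/FRQ1, the calcium sensor frequenin, had ratios of 5.22 (mixed) and 4.60 (young). More abundant genes of the list passed the limit in 1 sample or in none. MAP1B/FUTSCH had ratios of 8.36 (mixed) and 3.58 (young), and APLP2/APPL, the amyloid precursor-like protein, 2.86 (mixed) and 1.39 (young). STMN4/STAI, a stathmin, had ratios of 1.11 (mixed) and 0.914 (young), MAPT/TAU 3.21 (mixed) and 1.40 (young), and the adhesion protein NCAM2/FAS2 2.56 (mixed) and 1.13 (young).

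Of the ion channel list, 2 of 16 tested genes were higher, the potassium channel KCNC1/SHAW (ratios 5.78 mixed, 5.11 young) and the sodium leak channel NALCN/NA (8.59 mixed, 4.10 young). The list's median ratio was 5.42 in the mixed sample and 1.23 in the young sample. CACNA1A/CAC, the presynaptic calcium channel, had 23 counts in members and 8 in others of the mixed sample, a ratio of 41.8, and 36 counts in members and 122 in others of the young sample, a ratio of 3.63. KCNB2/SHAB had a ratio of 8.81 in the mixed sample. Its young levels were 730 CPM in members, 1288 CPM in others and 3980 CPM in barcodes under 500 UMIs, so its young counts in members are no higher than background.

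Of the transmitter receptor list, 4 of 20 tested genes were higher and 0 lower. CHRNA7/NACHRALPHA7, a nicotinic acetylcholine receptor subunit, had ratios of 30.6 (mixed) and 15.6 (young). GRIA4/GLURIB, a glutamate receptor subunit, had 21 counts in members and 17 in others of the mixed sample, and 11 counts in members and 3 in others of the young sample, a young ratio of 45.1 (interval 11.9 to 252). GABBR2/GABA_B, a GABA-B receptor subunit, had ratios of 17.8 (mixed) and 4.73 (young). The glutamate-gated chloride channel GLRA1/GLRA2/GLUCLALPHA had ratios of 11.8 (mixed) and 4.53 (young). Of the receptors for peptides, 0 of 9 tested were called in either direction.

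The 3 transmitter genes called higher were each found in few members. SLC18A2/VMAT (DAPMA1EVG029568), which loads monoamines into vesicles, had 39 counts in 5 mixed members, 22 of them in 1 barcode, and 16 counts in 6 young members. All 5 mixed and 5 of the 6 young barcodes also held 7B2. The monoamine reuptake gene SLC6A2/SLC6A4/DAT/SERT was found in 8 mixed members, 3 of them with VMAT, and in 6 young members, 1 of them with VMAT. BCHE/ACE, a cholinesterase, had 27 counts in members and 2 in others (mixed) and 11 in members and 12 in others (young). It was found in 18 mixed members, 17 with 7B2, and in 9 young members, 8 with 7B2. The list had 14 tested genes, and 0 were lower. Its most abundant gene, GLUL/GS2, glutamine synthetase, was found in 46 mixed and 72 young members and had ratios of 0.440 (mixed) and 1.13 (young).

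Vesicle loaders of GABA and acetylcholine were too sparse to be tested. SLC32A1/VGAT, which loads GABA, was found in 7 mixed members, all with 7B2, and 2 mixed other barcodes. It was found in 3 young members, 2 of them with 7B2, and 9 other young barcodes. SLC18A3/VACHT, which loads acetylcholine, was found in 1 member of each sample and in no other kept barcode.

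Further genes with a symbol had the largest ratios outside the lists. NRGN/IGL (DAPMA1EVG012051), fly igloo, had ratios of 44.8 (mixed) and 48.0 (young). GNAO1/GALPHAO, the G protein subunit of many neuronal receptors, had 130 counts in members and 28 in others (mixed, ratio 67.5) and 51 in members and 23 in others (young, ratio 27.3). SCGN/CBP53E, a calcium-binding protein, had ratios of 46.7 (mixed) and 19.3 (young), and SLC24A2/NCKX30C, a sodium-calcium exchanger, of 112 (mixed) and 16.8 (young). The remaining genes in the upper ranks were THSD7A/CG42339 (45.7 mixed, 38.8 young), ARRDC2/CG1105 (137 and 35.6 in the same order), and LNPEP/CG32473, an aminopeptidase (27.5 and 15.9). PLCXD1/CG14945 had 109 counts in members and 11 in others (mixed) and 19 in members and 9 in others (young). HS3ST5/HS3ST, a heparan sulfate sulfotransferase, had 26 counts in members and 19 in others (mixed) and 28 in members and 23 in others (young).

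Genes without a symbol took some of the highest ranks, and their counts were spread unequally. DAPMA1EVG023498 had 154 counts in 42 mixed members and 71 counts in 15 young members, with ratios of 140 (mixed) and 146 (young). DAPMA1EVG019238 had 279 counts in 37 mixed and 86 counts in 15 young members. DAPMA1EVG023501 had 47 counts in 27 mixed and 18 in 9 young members, against 3 and 1 counts in the other barcodes of these samples. In contrast, 48 of the 78 mixed counts of DAPMA1EVG023979 and 80 of its 100 young counts lay in 1 barcode each. For DAPMA1EVG033745, 37 of 38 mixed counts lay in 1 barcode, and all 71 young counts in another. Of the 95 genes called higher, 9 had at least 50% of their member counts in 1 barcode in both samples, 6 of them without a symbol, whereas 51 had under 25% there in both.

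Only 1 gene of the neuropeptide list could be matched to a name. GPHA2/GPA2 (DAPMA1EVG016469), a subunit of a glycoprotein hormone, had 65 counts in young members, all in 1 barcode, and 0 counts in the other young barcodes. In the mixed sample it had 0 counts in members and 4 in others, and it did not meet the minimum for the test.

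The genes called lower were mostly without a symbol, 105 of 152. The 5 with the lowest ratios in both samples included DAPMA1EVG021363, with 1 count in members and 3276 in others of the mixed sample and 3 counts in members and 2724 in others of the young sample. The others were DAPMA1EVG018186, DAPMA1EVG013651, DAPMA1EVG030248 and DAPMA1EVG022094. Among those with a symbol were cuticle protein genes, such as CPR49AG (DAPMA1EVG029378), which had 3 counts in members and 665 in others (mixed) and 5 in members and 1813 in others (young). AURKA/AURA, the mitotic kinase Aurora A, had ratios of 0.193 (mixed) and 0.141 (young). These examples with a symbol were chosen after their values were seen.

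Markers of other cell types were not called in either direction in the glia list (9 tested), the photoreceptor list (12), the hemocyte list (12), the muscle list (12) or the proliferation list (9). The summed level of the photoreceptor list was 6136 CPM in members and 2327 CPM in others (mixed) and 2058 CPM in members and 1396 CPM in others (young). At least 3 of its genes were found in 33.8% of members and 12.9% of others (mixed) and in 16.4% of members and 7.79% of others (young). After thinning to 500 UMIs, these shares were 14.3% of members and 2.74% of others (mixed). The thinned young shares were 4.10% of members and 1.92% of others. Opsins, the light-sensing receptors, were found in 55 of 133 mixed members (41.4%), against 20.9% of mixed others, and in 40 of 122 young members (32.8%), against 34.4% of young others. Of the mixed members with an opsin UMI, 27 held at least 3 UMIs of 7B2, IA and CPE. By library code, FYH gave 27 of the 55 from its 32 members, and FYB gave 18 from its 66 members. The part of the library code in the mixed opsin difference was not tested. Opsin levels were 4090 CPM in mixed members, 1151 CPM in mixed others and 12302 CPM in mixed barcodes under 500 UMIs. Young levels were 385 CPM in members, 570 CPM in others and 1545 CPM in barcodes under 500 UMIs. Of 732 opsin counts in mixed members, 543 lay in 2 barcodes, with 332 of 1660 UMIs in one and 211 of 895 UMIs in the other. Without them, a choice made after their counts were seen, mixed members held 1071 CPM. The mixed others kept all their barcodes, so their 1151 CPM is not a like value for this level, and no conclusion is drawn from it. By summed level, young members were not above young others. Whether the opsin UMIs of members came from background was not tested. At 500 UMIs each, members held a median of 368 genes and others 355.5 (mixed), and members 340.5 genes and others 328 (young). These differences lay within the quartiles of the other barcodes, which were 313 and 408 genes (mixed) and 293 and 359 genes (young).

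Between the samples, 292 of 3657 features with at least 20 member counts were at least 4-fold higher in mixed than in young members, a background of 7.98%, and 283 were at least 4-fold lower, a background of 7.74%. Much of this was shared with the other barcodes of the same libraries. Of the 292 features 114 (39.0%) were also at least 4-fold higher in mixed other barcodes, and of the 283 features 213 (75.3%) were also at least 4-fold lower there. MT-CO2/MT:COII (m000184F_s0.2), a mitochondrial gene, had 1045 counts in mixed and 2 in young members, and its ratio in other barcodes was 103. MT-ND1/MT:ND1 (s000357F_p0.2) had 0 counts in mixed and 854 in young members, and 16 and 19600 counts in the other barcodes of these samples. The feature s000362F_p0.3 had 0 counts in mixed and 1155 in young members. These extremes held in other barcodes as well and are not particular to members.

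ADAMTS18/STL (DAPMA1EVG030840), a secreted metalloprotease, had 296 counts in 9 mixed members and 0 in young members. With the 0 set to 3, its ratio was 95.9, and the lower limit of its interval was 77.5. Its ratio in other barcodes was 2.60. DAPMA1EVG019949 had 291 counts in 7 mixed members and 0 in young members. Opsin OPN4/RH2 (DAPMA1EVG031945) had 302 counts in 27 mixed members, 136 in 1 of them, and 3 counts in young members. Its ratio was 97.8 in members and 8.03 in other barcodes. A second opsin, OPN4/RH2 (DAPMA1EVG025431), had 249 counts in mixed and 2 in young members. Lower in mixed members were SULT1C4/ST1, a sulfotransferase, with 5 counts in mixed and 679 counts in 23 young members, DAPMA1EVG023369, with 0 counts in mixed members and 252 counts in 4 young members, and DAPMA1EVG023349, with 0 counts in mixed members and 211 counts in 71 young members. All 3 were also over 4-fold lower in mixed than in young other barcodes.

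Of 22 exocytosis genes 1 was called higher in mixed members and 0 lower. The median ratio over all features of this comparison was 1.24 in members and 1.25 in other barcodes. Of 9 peptide-processing genes 3 were higher in mixed members and 0 lower, with a median ratio of 2.80 in members and 2.44 in other barcodes. They were CPE/SVR, with 82 counts in mixed and 12 in young members (ratio 6.64), CPD/SVR, with 52 in mixed and 11 in young members, and PAM/PAL2, with 25 in mixed and 0 in young members. Their ratios in other barcodes, 6.91 for CPE/SVR, 2.65 for CPD/SVR and 15.1 for PAM/PAL2, ran the same way. In these ratios any count under 3 was set to 3. PTPRN/IA had a ratio of 2.58 in members, while in other barcodes it was at 39.6 CPM (mixed) and 132 CPM (young). SCG5/7B2 had a ratio of 2.80, at 1704 CPM in mixed and 609 CPM in young members. Among members with fewer than 3 hemocyte-list genes 7B2 was at 2178 CPM (mixed) and 1219 CPM (young), and among those with 3 to 5 rule genes at 3926 CPM (mixed) and 3576 CPM (young). The mixed-to-young difference in 7B2 thus moved with the number of members that carried hemocyte-list genes or only 2 rule genes, and their part in it was not tested beyond these values.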

How the data were processed

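The authors deposited, for each of the 2 samples, a table of unnormalized counts (integers in the deposited matrix) with 1 row per barcode and 1 column per gene name. The annotation and genome build are not given in the sources used here. The label of the young matrix holds the name of the aligner STAR, and that of the mixed matrix names no aligner. Whether the 2 samples were processed alike is not stated. The barcode lists give a row number and a library code, not barcode sequences, so barcodes shared between libraries or lanes could not be counted, and no doublet caller was run. Counts of the 33957 gene names were added over names with the same DAPMA1EVG identifier, which gave 19891 features. A name joins a human and a fly symbol, written here with a slash and roles come from those species. Families of similar genes, such as opsins and cuticle proteins, may share reads.

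Barcodes with at least 500 UMIs were kept. Counts were summed over members and over other kept barcodes of each sample and scaled to CPM. Features with at least 50 counts over both samples and 10 in each were compared; a count under 3 was set to 3 for ratios, and calls needed 3 member counts in each sample to be higher. Members of the samples were compared for features with at least 20 counts over both member sums. Levels compare one gene between sets of barcodes. Thinning drew 500 UMIs per barcode (seed 1). Python 3.11.15, numpy 2.4.6, scipy 1.17.1 and pandas 2.3.3 were used. The call procedure was tested on simulated data, but the outcome is not given here and bears on no result.

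The 5 rule genes, the lists and the alternatives were chosen with earlier results of these data known; the list of peptide receptors was made after the names were seen. Named are the called genes and the most abundant genes of the neuronal lists, the 15 genes with a symbol and 5 without one that had the largest smaller ratio, the 5 lowest and the 5 most extreme in each direction between the samples; other genes named, among them those of the hemocyte split, were chosen after their values were seen. Alternatives changed the rule, the UMI minimum, the fold, the minimum count, the scaling, the naming of features and the library codes included. Some genes that this rule names are not reported here.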

Additional observations from a re-analysis of the deposited data

Results flagged for a closer look

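In 4 genes that held at least 3 member counts where they were higher, the ratio of members over other kept barcodes went past 4-fold in opposite directions in the samples, a difference that was not tested. CRISP3/CG8483 DAPMA1EVG024055 had a ratio of 0.152 in the mixed and 280 in the young sample, DGKK/CG1468 DAPMA1EVG034583 0.195 and 90.2, DAPMA1EVG021849 0.180 and 4.98, and DAPMA1EVG027613 0.101 and 5.15, in the same order. All young member counts of each of these genes lay in 1 barcode, with 91, 22, 49 and 67 counts.

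Barcodes under 500 UMIs, which entered no gene call, also held rule genes. AMON was at 81.7 CPM in mixed and 25.4 CPM in young barcodes of this kind, RAB3 at 71.9 (mixed) and 17.2 CPM (young), and CPX at 165 (mixed) and 172 CPM (young). BRP was at 19.6 (mixed) and 188 CPM (young), and VGLUT at 11.8 (mixed) and 30.7 CPM (young). SCG5/7B2 was at 74.5 (mixed) and 12.4 CPM (young) there, above its 8.08 (mixed) and 4.20 CPM (young) in other kept barcodes.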

How the results depend on the processing

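The share of members depended on the rule. With at least 3 of the 5 genes it was 2.31% in the mixed and 1.0005% in the young sample, a difference of 1.31 percentage points. It was 4.26% (mixed) and 3.27% (young) at 300 UMIs, and 3.37% (mixed) and 2.81% (young) after thinning to 500 UMIs. At 1000 UMIs the young share was 9.67% and the difference -3.09 percentage points. Leaving out AMON gave a difference of -0.419, leaving out RAB3 shares of 3.77% (mixed) and 3.14% (young), and leaving out CPX 2.84% (mixed) and 1.48% (young), a difference of 1.36. Leaving out BRP gave a young share of 3.91% and a difference of 1.20. Without each library code in turn, the mixed share ran from 4.87% to 6.50%, the young share from 5.12% to 6.61% and the difference from -0.942 (without FYH) to 0.781; without Y2 it was -0.712.

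The counts of genes called higher (95) and lower (152) were 208 and 49 with at least 3 rule genes, 259 and 359 at a fold of 2, and 45 and 57 at a fold of 8. At a minimum of 200 counts, 35 were higher. Without members that held 3 or more hemocyte, muscle or photoreceptor genes, which left 63 mixed and 33 young members, 102 were higher and 36 lower, of which 57 and 27 were among those called with all members. Leaving out members with hemocyte-list genes was added after the data were seen. Without each code, 71 to 97 genes were higher and 93 (without FYB; 97 without CH1) to 156 lower. For mixed over young members (292 and 283), a fold of 2 gave 927 and 582, and at least 3 rule genes 59 and 68; leaving out codes gave 174 (without FYB) to 305 and 197 to 286. TMM scaling moved the log2 ratios by 0.08 (mixed) and 0.14 (young). None of the 95 genes called higher changed direction under the alternatives run for single genes, but many ratios shifted in size. With at least 3 rule genes 84 of the 95 shifted, and at 1000 UMIs 30 did. Leaving out members with 3 or more hemocyte genes shifted 56, and leaving out those with hemocyte, muscle or photoreceptor genes 54. Among single codes left out, the largest number was 27 (without CH1). The cause of these shifts was not tested. No paired analysis was possible because each group has 1 sample.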
